A study of Mus musculus with 18 samples.

Results

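The members of the oxidative phosphorylation system were taken by gene name: the mitochondrial mRNA names beginning mt-Nd, mt-Co, mt-Cytb or mt-Atp, and the nuclear names beginning Nduf followed by a subunit letter, Sdha to Sdhd, Uqcr, Cox4 to Cox8 and Atp5, without names of pseudogenes. This gave 84 of the 16248 genes listed, of which 7 are encoded in the mitochondrial genome and 77 in the nucleus. The 7 were mt-Nd1, mt-Nd2, mt-Nd4, mt-Nd5, mt-Nd6, mt-Cytb and mt-Co1, and the other mitochondrial mRNAs were not analysed here. The nuclear members comprised 36 named for complex I, 4 for complex II, 7 for complex III, 14 for complex IV and 16 for complex V. All 84 passed the filter on low values (FPKM, fragments per kilobase of gene and per 1e6 reads, of at least 1 in at least 3 libraries), along with 13983 genes in all.

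Endothelial cells (ECs, the lining of blood vessels) were sorted from female FVB mice and sequenced in bulk, with 3 libraries in each of 6 groups and 3 mice a group by the study's account. The source of normal ECs was the fat pad of the mammary gland in wild type animals. MMTV-PyMT ECs came from spontaneous breast tumours of mice whose mammary epithelium expresses the polyoma middle T oncogene under the MMTV promoter, and implanted ECs from breast tumours grown in wild type hosts from cultured MMTV-PyMT tumour cells. Each tissue was injected with PBS or with cGAMP, a cyclic dinucleotide that activates STING, and taken 3 h later. The mitochondrial and the nuclear members were compared across tissue and treatment.

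Oxidative phosphorylation runs on 5 complexes of the inner mitochondrial membrane. Complexes I to IV pass electrons from NADH and succinate to oxygen and, complex II apart, pump protons, and complex V (ATP synthase) uses the proton gradient to make ATP. Complex II is wholly nuclear in origin, whereas the other complexes combine core subunits translated inside the mitochondrion with subunits imported from the cytosol. The mitochondrial mRNAs are cut from long transcripts made by a dedicated polymerase and are broken down by an RNA degradation machinery of the organelle, so their levels are set apart from those of nuclear mRNAs. ECs are known to rely on glycolysis for much of their ATP.

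The libraries held 9068064 to 12058796 reads recovered from the FPKM values (the smallest and the largest), and no library pair of a group agreed within sampling noise. All 8 endothelial markers were detected and summed to 1090 to 1234 FPKM in normal PBS, 1013 to 1296 in implanted PBS and 716 to 877 in MMTV-PyMT PBS libraries. Mural cell markers (Rgs5, Notch3, Pdgfrb, Cspg4 and Acta2) summed to 908 to 1020 FPKM in normal PBS libraries, to 199 to 239.9 in implanted PBS and to 218 to 299.7 in MMTV-PyMT PBS libraries. Epithelial markers (6 of 6 listed) summed to 313 to 395, 345 to 494 and 838 to 905 FPKM in the same order. Fibroblast markers (4 of 4 listed) summed to 49.4 to 56.3, 182 to 212 and 83.3 to 134 FPKM. None of the 6 adipocyte markers was listed. The genes listed had no value of 0 in any library, so that absence from the list does not show absence from every library. Leukocyte markers summed to 15.1 to 58.9 FPKM in every library of the other groups, but ranged from 42.03 to 192 in the implanted cGAMP group. In bulk libraries, fewer cells of a type and less RNA per cell cannot be told apart.

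Per length, 5 of the 7 mitochondrial mRNAs were above every nuclear member. Averaged over the 6 groups, mt-Co1 (the catalytic core subunit of cytochrome c oxidase, complex IV) stood at 3343 FPKM, mt-Cytb (the cytochrome b core of complex III) at 698 FPKM and mt-Nd1 (a membrane subunit of complex I) at 636 FPKM. mt-Nd5 followed at 206 FPKM and mt-Nd2 at 160.2 FPKM. The highest nuclear member was Atp5b, the catalytic beta subunit of ATP synthase, at 145 FPKM, above mt-Nd4 at 125 FPKM. Cox6b1 (110.0), Cox8a (98.8), Cox4i1 (83.7) and Cox6a1 (70.4), all structural subunits of complex IV, came next on the FPKM scale. The lowest nuclear member was Cox6b2, the testis isoform of a complex IV subunit, at 0.584 FPKM.

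The read balance between the genomes was higher on the mitochondrial side with cGAMP in each tissue, but in implanted tumours the libraries overlapped once mt-Co1 was left out. The ratio of reads on the 7 mitochondrial mRNAs to reads on the 77 nuclear mRNAs does not depend on how libraries are scaled. It was 1.700, 1.72 and 1.85 in the 3 normal PBS libraries and 2.22, 2.003 and 2.17 in the 3 normal cGAMP libraries. In implanted tumours it was 1.95, 2.47 and 2.44 with PBS and 3.26, 3.18 and 3.24 with cGAMP. In MMTV-PyMT tumours it was 1.39, 1.32 and 1.28 with PBS and 1.85, 2.35 and 1.62 with cGAMP. The PBS and cGAMP libraries did not overlap in any of the 3 tissues, and the ratio of the means was 1.21 in normal, 1.41 in implanted and 1.46 in MMTV-PyMT ECs. Among PBS libraries the order was MMTV-PyMT (1.33 ± 0.060, SD, n = 3), normal (1.76 ± 0.082) and implanted (2.29 ± 0.29), with no overlap between neighbours. mt-Co1 held 65.2 to 78.6% of the mitochondrial mRNA reads. Without it, a measure chosen after seeing the data, the ratio was 0.53 to 0.60 with PBS and 0.65 to 0.75 with cGAMP in normal ECs and 0.44 to 0.46 and 0.47 to 0.69 in MMTV-PyMT tumours, again apart. In implanted tumours it was 0.52 to 0.68 and 0.68 to 0.80, with 1 PBS library above the lowest cGAMP library, and the implanted PBS libraries then overlapped with the normal ones too. The mean log2(FPKM + 1) of mitochondrial minus that of nuclear members, which gives each member the same weight, overlapped in the same 2 comparisons, though without mt-Nd6 the implanted cGAMP libraries (4.72 to 4.96) were above the PBS ones (4.29 to 4.68). Within the implanted cGAMP group the ratio was 3.18 in the library with the highest leukocyte sum.

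**Figure D1:**
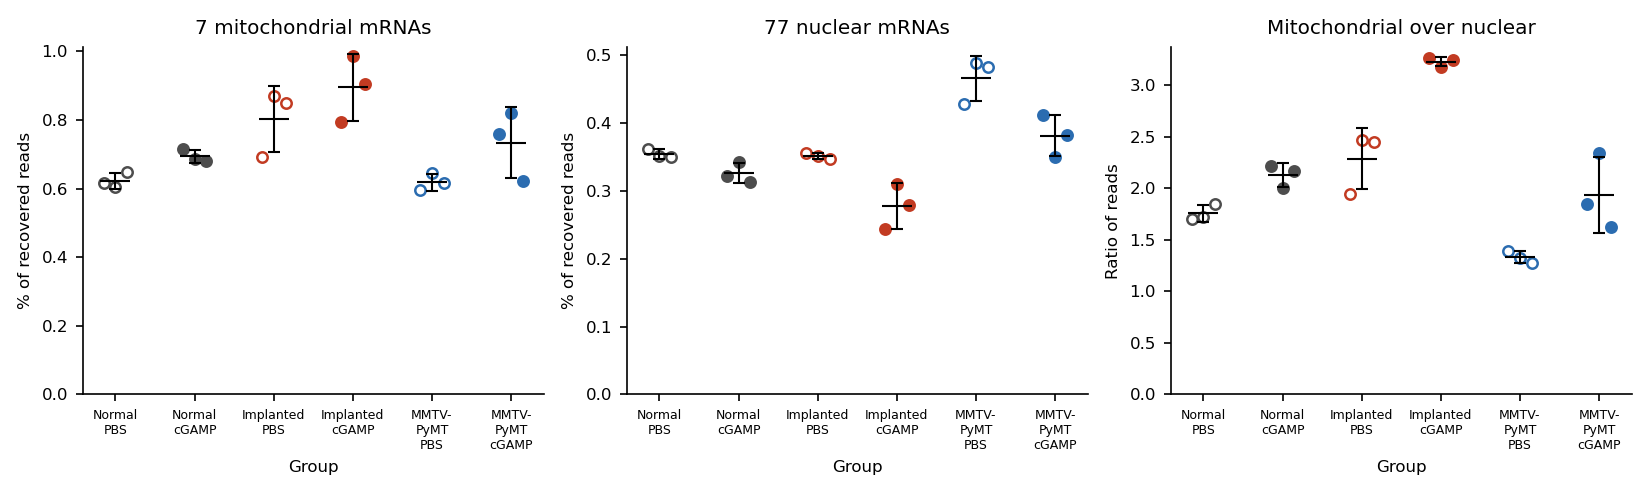
Share of recovered reads on the 7 mitochondrial mRNAs (left, %), on the 77 nuclear mRNAs (middle, %) and the ratio of both read sums (right) in the 6 groups (x axis). Circles are libraries, open for PBS and filled for cGAMP, with the mean and SD of 3 libraries in black. The ratio was higher in all cGAMP than in all PBS libraries of the same tissue and reached 3.18 to 3.26 in implanted cGAMP libraries, but without mt-Co1 the implanted libraries overlapped.

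The nuclear share of reads was 0.354% ± 0.0070 with PBS and 0.326% ± 0.015 with cGAMP in normal ECs (SD, n = 3 for each). It was 0.352% ± 0.0040 and 0.278% ± 0.034 in implanted tumours, and 0.466% ± 0.033 and 0.382% ± 0.031 in MMTV-PyMT tumours. In all 3 tissues the cGAMP and PBS libraries did not overlap in the nuclear share. In voom by total reads the median change of the nuclear members in implanted tumours was -0.34, next to -0.343 over all genes. In MMTV-PyMT tumours these were -0.29 and -0.184, and in normal ECs -0.15 and -0.0668. The mitochondrial mRNA share was 0.622% ± 0.022 and 0.694% ± 0.019 in normal ECs, without overlap. It was 0.804% ± 0.097 and 0.896% ± 0.097 in implanted and 0.619% ± 0.025 and 0.734% ± 0.10 in MMTV-PyMT tumours, and there the PBS and cGAMP libraries overlapped. The 2 mitochondrial ribosomal RNAs, which are transcribed from the same strand as most of the mRNAs, took 2.80% ± 0.39 and 2.87% ± 0.19 of reads in normal ECs with PBS and cGAMP, and overlapped between the treatments in every tissue.

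Across the 18 libraries, members encoded in the same genome varied with each other more than with those of the other genome. The median Pearson correlation of log2(FPKM + 1) was 0.67 over the 21 pairs of mitochondrial members, 0.44 over the 2926 nuclear pairs and -0.015 over the 539 pairs that joined both genomes. The pairs share the same libraries, so that these values are a description.

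Gene by gene, few members passed the test for cGAMP. The test was limma on log2(FPKM + 1) with 6 group means, and a member passed at a Benjamini-Hochberg adjusted p under 0.05 over all 13983 genes. In normal ECs 7 of 77 nuclear members fell and 0 rose, against 18.2% of all tested genes that fell and 13.7% that rose. At 9.09% the falling share of nuclear members was below that of all genes. The median nuclear change was -0.13 on the log2 scale, and 56 of the 77 had a negative sign, against a median of -0.045 over all genes. Of the mitochondrial mRNAs 1 of 7 rose, mt-Nd5, and all 7 had a positive sign with a median of 0.22.

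The largest falls in normal ECs were in Ndufs7, Ndufa3 and Sdha. Of the 36 nuclear members of complex I 4 (11.1%) fell, against 18.2% of all genes. Ndufs7, an iron-sulphur subunit close to the ubiquinone site of complex I, stood at 11.9, 10.6 and 14.99 FPKM with PBS and 7.47, 7.19 and 7.82 FPKM with cGAMP. All 3 cGAMP libraries were below all 3 PBS libraries, a change of -0.66 ± 0.11 (SE, limma adjusted p = 0.000404). Ndufa3, an accessory subunit of complex I, went from 17.6, 16.995 and 17.97 to 12.7, 10.9 and 10.4 FPKM without overlap, a change of -0.59 ± 0.09 (SE, limma adjusted p = 0.000259). Sdha, the flavoprotein of succinate dehydrogenase (complex II), which belongs to both the respiratory chain and the tricarboxylic acid cycle, went from 38.5, 37.97 and 40.8 to 29.7, 30.3 and 26.3 FPKM, a change of -0.43 ± 0.07 (SE, limma adjusted p = 0.00043). Ndufb3, Atp5j2, Cox7a2l and Ndufb8 fell by 0.39, 0.37, 0.28 and 0.25 on the log2 scale. Their calls were lost without any of 8, 4, 1 (the third normal PBS library) and 10 single libraries, respectively, and that of Ndufb3 also in voom and under the replicate block. mt-Nd5, a proton-pumping subunit of complex I, rose from 157, 149.5 and 171 to 211, 195 and 201 FPKM without overlap, a change of 0.34 ± 0.12 (SE, limma adjusted p = 0.0389). That call was lost without any of 5 of the 6 normal libraries, the third PBS library being the exception.

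In implanted tumours 1 nuclear member rose with cGAMP and 3 fell, against 20.3% of all genes that rose and 18.8% that fell. The median nuclear change was -0.0095 on the log2 scale, next to -0.014 over all genes. The mitochondrial median was 0.23, all 7 had a positive sign and 2 passed. With libraries scaled to the same FPKM sum instead, the median of all genes moved by -0.199, the mitochondrial median turned to -0.042 with 0 of 7 passing, and 44 nuclear members fell. On that scale 37.1% of all genes fell and 12.3% rose. Relative to the median of all genes the mitochondrial members were at 0.24 on the deposited scale and 0.17 on the rescaled one, and the nuclear members at 0.0045 and -0.054. Fibroblast markers moved in the same comparison, 3 of 4 being higher with cGAMP, with a median of 0.72 and sums of 198 to 476 FPKM against 182 to 212 with PBS. Their part was not tested.

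Atp5k, the e subunit of ATP synthase that helps it dimerise, stood at 7.298, 7.6998 and 6.41 FPKM in implanted PBS libraries and at 3.3005, 5.98 and 2.57 FPKM with cGAMP, a change of -0.77 ± 0.23 (SE, limma adjusted p = 0.0128). The groups did not overlap, the values rest on 42, 42 and 39 and 17, 31 and 16 recovered reads, and without the third cGAMP library the call was lost. Uqcr11, the smallest subunit of complex III, went from 30.9, 34.002 and 31.4 to 21.1, 29.5 and 22.5 FPKM, a change of -0.40 ± 0.12 (SE, limma adjusted p = 0.0185). Atp5g1, one of 3 genes for the membrane ring subunit c of ATP synthase, went from 7.95, 7.86 and 8.49 to 5.06, 8.11 and 5.65 FPKM with overlap, a change of -0.34 ± 0.13 (SE, limma adjusted p = 0.04996). Ndufs4, a late-assembled subunit of complex I, rose from 8.73, 8.51 and 8.82 to 9.54, 11.02 and 10.4 FPKM, a change of 0.22 ± 0.08 (SE, limma adjusted p = 0.0348) that turned to -0.023 under the same FPKM sum. The call of Uqcr11 was lost without the second PBS, the first cGAMP or the third cGAMP library of the implanted groups, and that of Atp5g1 with a pseudocount of 0.1, with no filter and without any of 15 single libraries. The call of Ndufs4 was lost in voom and without any implanted library but the first cGAMP one. mt-Co1 rose from 3276, 4167 and 3916 to 5215, 6139.7 and 5252 FPKM, a change of 0.55 ± 0.14 (SE, limma adjusted p = 0.00519), and kept its sign but not its call under the same FPKM sum. mt-Nd5 went from 197, 260.1 and 230.3 to 291, 276 and 290.5 FPKM, a change of 0.33 ± 0.12 (SE, limma adjusted p = 0.0416). The call of mt-Nd5 was lost under both FPKM sums, in voom, under the replicate block and without any of 7 single libraries.

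In MMTV-PyMT tumours 0 nuclear members rose and 1 fell with cGAMP, against 7.42% of all genes that rose and 4.57% that fell. Yet 71 of the 77 had a negative sign, with a median of -0.15 against -0.037 over all genes. Scaled by total reads in voom, 32 fell and 0 rose, against 19.0% of all genes that fell and 6.66% that rose. The median of all genes moved by -0.147. Of the 7 mitochondrial mRNAs 0 passed in limma, all had a positive sign, and the median was 0.30. At an unadjusted p under 0.05, 3 of the 7 were higher, and 2 passed in voom on recovered reads. Ndufs4 went from 11.2, 12.2 and 12.2 to 10.2, 8.896 and 9.64 FPKM, a change of -0.29 ± 0.08 (SE, limma adjusted p = 0.0255), without overlap, a call lost in voom scaled by a trimmed mean of M values and without replicate 2 or 3 of either MMTV-PyMT group. mt-Co1 stood at 2336, 2490.4 and 2349.6 FPKM with PBS and 3218, 3757 and 2826 FPKM with cGAMP, and its difference of 0.44 ± 0.14 (SE, limma adjusted p = 0.051) missed the threshold.

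**Figure D2:**
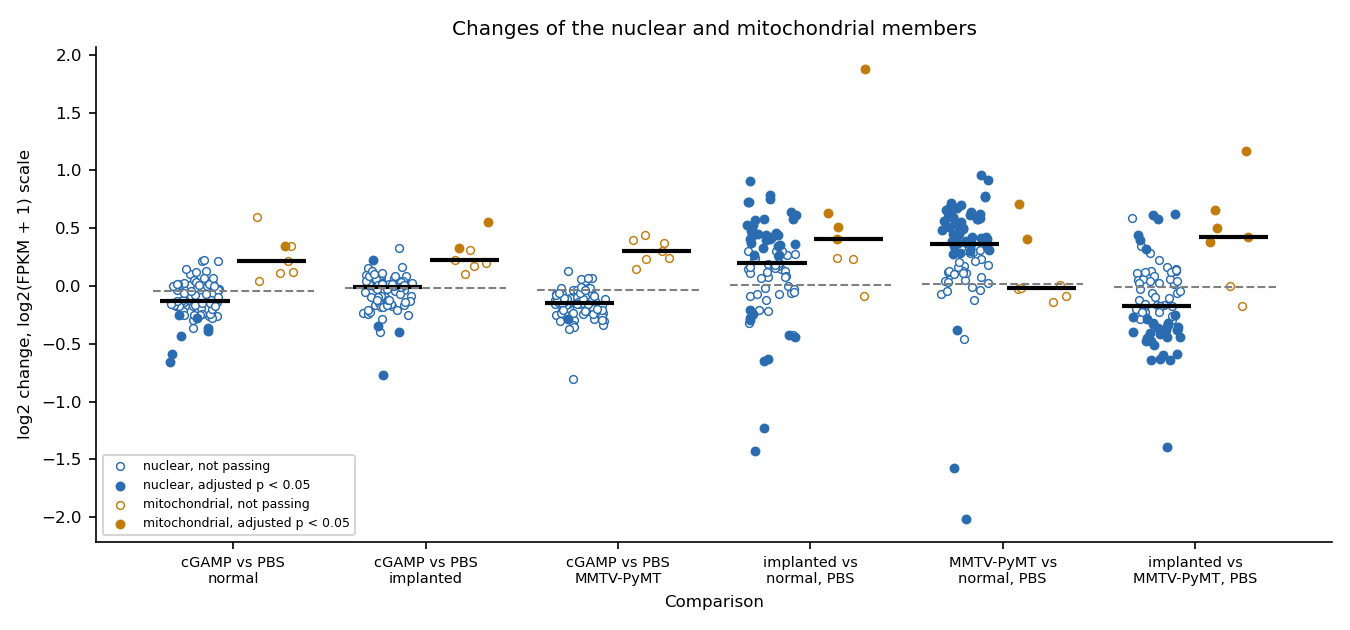
log2 change on the log2(FPKM + 1) scale (y axis) of each nuclear (blue) and mitochondrial (orange) member in 6 comparisons (x axis). Filled points passed at an adjusted p under 0.05, black bars are medians of each set and the dashed line is the median of all 13983 genes. The mitochondrial median lay above the nuclear one in the 3 cGAMP comparisons (0.22 and -0.13 in normal, 0.23 and -0.0095 in implanted, 0.30 and -0.15 in MMTV-PyMT ECs).

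On the deposited scale the response to cGAMP differed between tissues for 3 members, all of complex I, which holds 36 of the 77 nuclear members. In the difference of the cGAMP effect between implanted and MMTV-PyMT tumours, 1 nuclear member was higher and 0 were lower, against 7.34% and 3.72% of all genes. It was Ndufs4, with a difference of 0.51 ± 0.11 (SE, limma adjusted p = 0.00708). Between implanted tumours and normal ECs 2 nuclear members were higher and 0 lower, against 12.5% and 6.09% of all genes. They were Ndufs7, with a difference of 0.65 ± 0.16 (SE, limma adjusted p = 0.0091), and Ndufa3, with 0.42 ± 0.13 (SE, limma adjusted p = 0.0396); both fell in normal ECs, and with cGAMP in implanted tumours Ndufs7 stood at 10.6, 11.1 and 9.95 FPKM against 11.5, 10.5 and 9.896 with PBS. Between MMTV-PyMT tumours and normal ECs 0 of 77 passed in limma (5 at an unadjusted p under 0.05), against 5.48% of all genes higher and 2.90% lower. Of the 7 mitochondrial mRNAs 0 passed in each of the 3 differences in limma, and the numbers at an unadjusted p under 0.05 were 0, 1 and 0. With the same FPKM sum the nuclear members that passed in these differences were other ones and lower. The call of Ndufa3 was also lost in each voom fit, under the replicate block and without any of 12 single libraries. Fibroblast markers moved too, 2 of 4 being higher in each of the differences of implanted tumours from the other tissues, and their part was not tested. For the other members that passed with cGAMP in 1 tissue, the difference between tissues did not pass.

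The 7 mitochondrial mRNAs did not move as one between tissues. mt-Nd6, the only mRNA read from the other strand of the mitochondrial genome, encodes a complex I subunit and lay at M:13552-14070 on the minus strand (mm10 coordinates of the GENCODE M21 annotation). The other 6 lay on the plus strand between positions 2751 and 15288. mt-Nd6 shares its last 14 bases with the end of mt-Nd5 (M:11742-13565), in opposite orientation. The ends of both transcripts are shown because the genes overlap there. The capitals mark the shared bases M:13552-13565, each read 5′ to 3′ on its own strand from the GENCODE transcripts.
mt-Nd5: ttatcttatactcaaTTAATCTCGAGTAA
mt-Nd6: ttattattatcgagaTTACTCGAGATTAA
Library preparation kept strand, and whether the counting used it was not stated.

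mt-Nd6 stood at 2.77, 1.46 and 3.91 FPKM in normal, 4.79, 5.51 and 4.25 FPKM in MMTV-PyMT and 9.07, 14.8 and 13.1 FPKM in implanted PBS libraries. The 3 groups did not overlap, and the implanted mean was 4.53 times the normal mean. These values rest on 17, 9 and 22 recovered reads in normal and 44, 68 and 67 in implanted libraries. The change was 1.87 ± 0.25 (SE, limma adjusted p = 1.35e-05) for implanted against normal ECs and 1.17 ± 0.25 (SE, limma adjusted p = 0.0013) for implanted against MMTV-PyMT ECs. For MMTV-PyMT against normal ECs it was 0.71 ± 0.25 (SE, limma adjusted p = 0.0234), a call that was lost with libraries scaled to the same FPKM sum, in voom, and without the second normal PBS or the second MMTV-PyMT PBS library.

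mt-Co1 stood at 2324, 2369 and 2603 FPKM in normal and 3276, 4167 and 3916 FPKM in implanted PBS libraries, a rise of 0.63 ± 0.14 (SE, limma adjusted p = 0.00136). In MMTV-PyMT PBS libraries it was 2336, 2490.4 and 2349.6 FPKM, within the range of the normal libraries. mt-Nd5 at 197, 260.1 and 230.3 FPKM in implanted PBS libraries was above all normal PBS libraries, a rise of 0.51 ± 0.12 (SE, limma adjusted p = 0.00224). mt-Cytb at 633, 850.4 and 813 FPKM against 556, 554 and 614 FPKM in normal libraries rose by 0.40 ± 0.13 (SE, limma adjusted p = 0.0175). The call of mt-Cytb was lost under both FPKM sums, by total reads in voom and without any of 4 single PBS libraries, and that of mt-Nd5 under both FPKM sums. By contrast mt-Nd2, which lies upstream of mt-Co1 on the same strand, stood at 153, 145 and 174 FPKM in normal, 126, 161 and 158 in implanted and 144, 149 and 151 in MMTV-PyMT PBS libraries. These ranges overlapped, and mt-Nd2 passed in none of the 6 comparisons of groups.

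In implanted against normal ECs under PBS, 4 of 7 mitochondrial mRNAs rose and 0 fell, with a median of 0.40. Of all genes 25% rose and 23.6% fell. With the same FPKM sum 2 of the 7 were higher and 1 was lower, with a median of 0.099. In MMTV-PyMT against normal ECs 2 of 7 (28.6%) rose, mt-Nd6 and mt-Nd1, next to 29.8% of all genes, with a median of -0.018. mt-Nd1 stood at 486, 463 and 565 FPKM in normal and 636, 676 and 684 FPKM in MMTV-PyMT PBS libraries, without overlap, a change of 0.40 ± 0.13 (SE, limma adjusted p = 0.0143). With the same FPKM sum 4 of 7 fell and 0 rose in this comparison, and 40.3% of all genes fell and 17.4% rose. The call of mt-Nd1 was then lost, as it was without the second normal PBS library. In implanted against MMTV-PyMT ECs 5 of 7 rose, mt-Nd6, mt-Co1, mt-Nd5, mt-Cytb and mt-Nd4, with a median of 0.42. Of all genes 20.8% were higher and 24.6% lower in this comparison. The calls of mt-Cytb and mt-Nd4 were lost by total reads in voom and, for each, without any of 3 single PBS libraries.

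**Figure D3:**
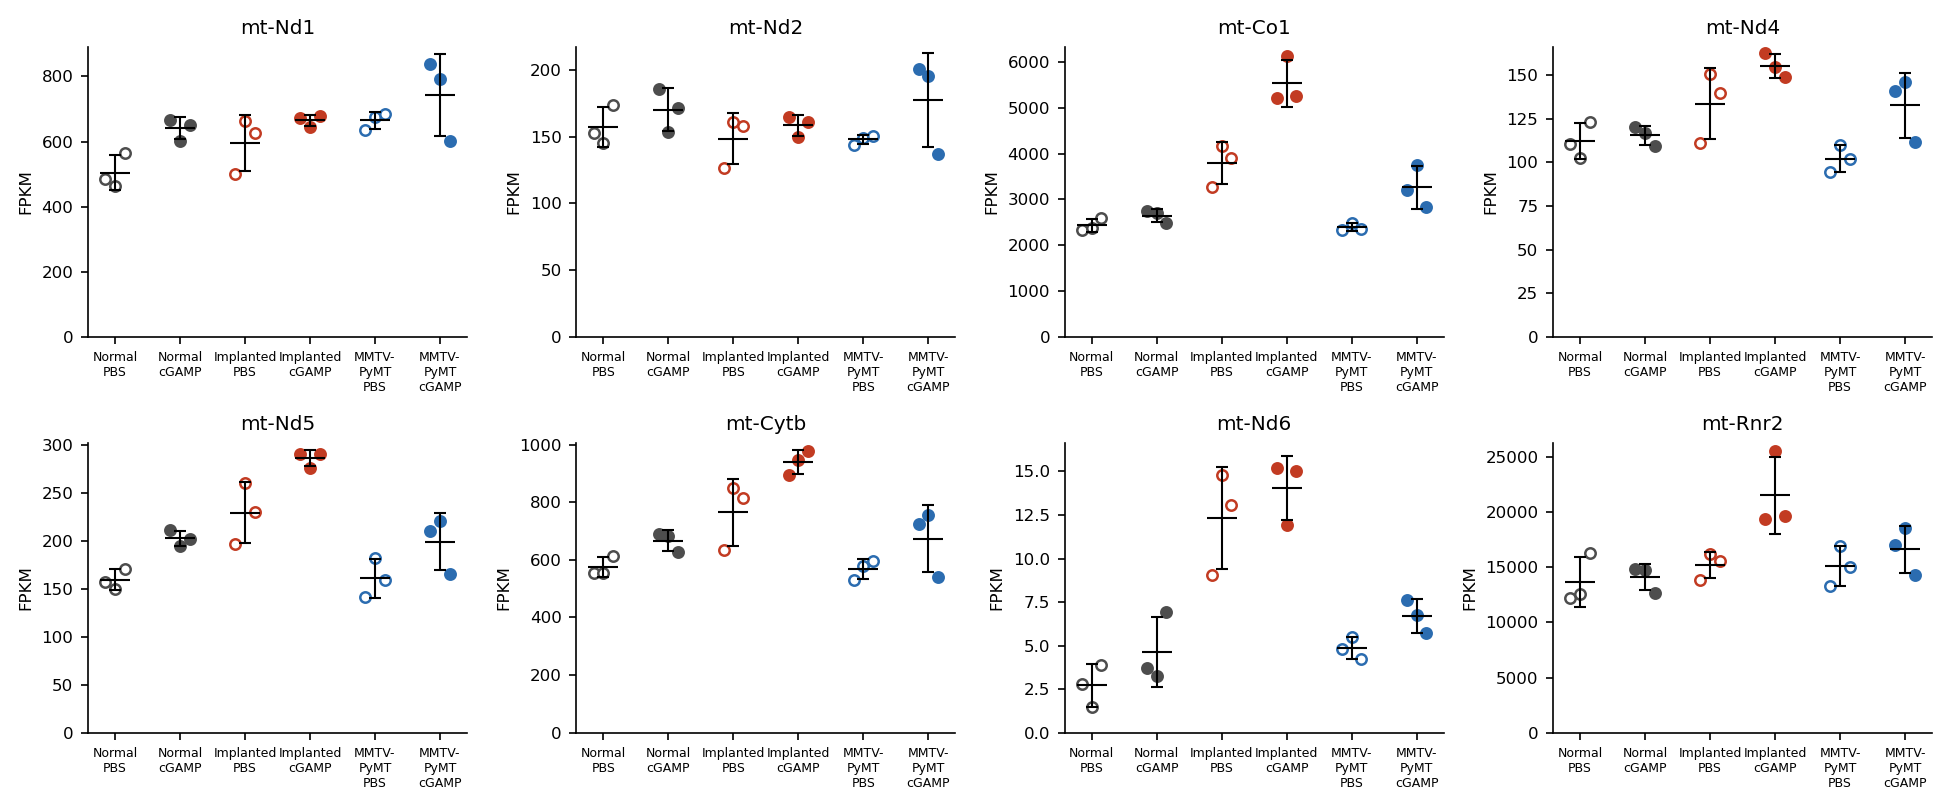
FPKM (y axes, from 0) of the 7 mitochondrial mRNAs and of the large mitochondrial ribosomal RNA mt-Rnr2 in the 6 groups (x axes). Circles are libraries, open for PBS and filled for cGAMP, with the mean and SD of 3 libraries in black. mt-Nd6 separated implanted PBS libraries (9.07 to 14.8 FPKM) from normal PBS libraries (1.46 to 3.91 FPKM), whereas mt-Nd2 did not.

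More nuclear members rose than fell in both tumours against normal ECs on the deposited scale, and in implanted ECs this balance turned with the scaling. In MMTV-PyMT against normal ECs under PBS 45 of 77 rose and 3 fell, against 29.8% of all genes that rose and 26.6% that fell. The 45 were 58.4% of the nuclear members, and the median change was 0.36 against 0.016 over all genes. The same FPKM sum left 20 higher and 10 lower with a median of 0.10, against 17.4% of all genes higher and 40.3% lower. It moved the median of all genes by -0.217. Relative to all genes the nuclear median was then 0.30, compared with 0.35 on the deposited scale. In implanted against normal ECs 30 of 77 rose and 10 fell, against 25% and 23.6% of all genes, with a median of 0.20. Here the same FPKM sum turned the balance to 9 higher and 22 lower and the median to -0.064, while the median relative to all genes was 0.16 and on the deposited scale 0.19. By total reads in voom 13 were higher and 15 lower, against 17.5% and 33.7% of all genes. Both comparisons share the normal PBS libraries.

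The members are given by complex, and differences between complexes were not tested. Of the 16 nuclear members of complex V 11 rose and 0 fell in MMTV-PyMT ECs, with a median of 0.59, and 10 rose and 0 fell in implanted ECs, with a median of 0.38. Complex I had 20 higher and 2 lower of 36 in MMTV-PyMT ECs (median 0.31) but 8 higher and 5 lower in implanted ECs (median 0.16). Complex III had 4 higher of 7 in each, with 1 lower in implanted ECs. Complex IV had 8 higher and 1 lower of 14 in MMTV-PyMT ECs and 7 higher and 3 lower in implanted ECs. In complex II Sdhb, the iron-sulphur subunit, and Sdhd, a membrane anchor, rose in MMTV-PyMT ECs, while in implanted ECs Sdhd rose and Sdha fell. The rise of Sdhd in implanted ECs turned to -0.034 under the same FPKM sum. The call of Sdhb in MMTV-PyMT ECs was lost under both FPKM sums.

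**Figure D4:**
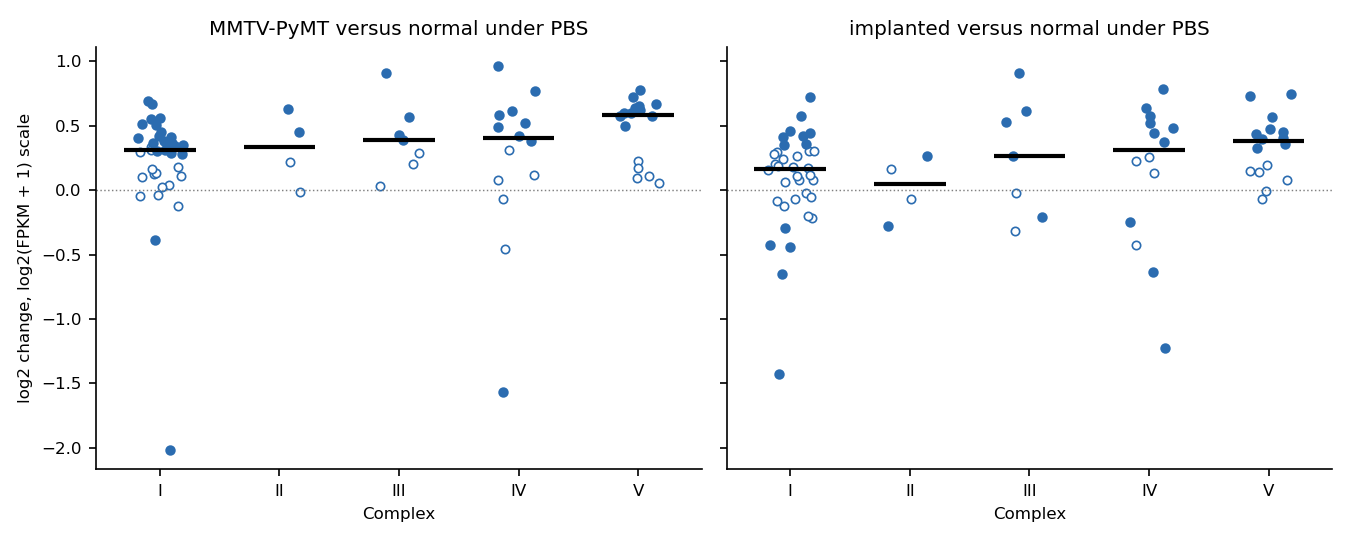
log2 change on the log2(FPKM + 1) scale (y axis) of the nuclear members by complex (x axis), in MMTV-PyMT (left) and implanted (right) ECs against normal ECs, PBS libraries of 3 mice a group. Filled points passed at an adjusted p under 0.05 and black bars are medians. Complex V had the highest medians, 0.59 on the left and 0.38 on the right, and no member that fell on the deposited scale.

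The largest rises in MMTV-PyMT ECs were in Cox7a1, Uqcrfs1 and Atp5o. Uqcrfs1, the Rieske iron-sulphur protein of complex III, stood at 37.5, 32.4 and 36.6 FPKM in normal and 62.8, 68.6 and 71.6 FPKM in MMTV-PyMT PBS libraries, a change of 0.91 ± 0.10 (SE, limma adjusted p = 1.6e-06). Atp5o, a stalk subunit of ATP synthase, went from 25.6, 24.6 and 23.5 to 38.1, 46.2 and 44.4 FPKM, a change of 0.78 ± 0.11 (SE, limma adjusted p = 3.1e-05). Neither gene overlapped between the groups. In implanted ECs the largest rises were in Uqcrq, Cox7c and Atp5h. Uqcrq, a small subunit of complex III, went from 9.25, 8.06 and 11.2 in normal to 18.8, 18.7 and 18.2 FPKM in implanted PBS libraries, a change of 0.91 ± 0.12 (SE, limma adjusted p = 1.85e-05). Cox7c, a small subunit of complex IV, went from 12.9, 15.4 and 17.4 to 27.6, 25.6 and 27.5 FPKM, a change of 0.79 ± 0.13 (SE, limma adjusted p = 9.05e-05). Atp5h, a peripheral stalk subunit of ATP synthase, went from 36.7, 35.1 and 35.97 to 59.8, 60.3 and 63.2 FPKM, a change of 0.75 ± 0.13 (SE, limma adjusted p = 0.000254). Each of these 3 genes was higher in all implanted than in all normal PBS libraries.

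Ndufb10, an accessory subunit of complex I, was among the 10 nuclear members that fell in implanted and the 3 that fell in MMTV-PyMT ECs. It stood at 18.5, 15.9 and 15.8 FPKM in normal, 10.6, 10.02 and 10.1 FPKM in implanted and 12.9, 12.9 and 11.8 FPKM in MMTV-PyMT PBS libraries. The falls were -0.65 ± 0.12 (SE, limma adjusted p = 0.000226) and -0.38 ± 0.12 (SE, limma adjusted p = 0.0102), respectively, and the second was lost without the first normal PBS library. Epithelial markers moved with the nuclear rise in MMTV-PyMT ECs: 4 of 6 rose, and Epcam stood at 68.5, 57.7 and 54.2 FPKM in normal and 186, 212 and 212 FPKM in MMTV-PyMT PBS libraries. In implanted ECs 2 of 6 rose and 1 fell, with Epcam at 106, 81.6 and 109 FPKM. Of the 8 endothelial markers 5 were lower and 0 higher in MMTV-PyMT ECs, while implanted ECs had 3 higher and 3 lower. The part of these markers in the nuclear rise was not tested.

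Promoter letters of 64 of the 77 nuclear members were found in RefSeq (GRCm38.p6, from 250 bases before to 50 after each start). The core of the NRF1 site, GCGCATGCG on either strand, was in the promoters of 7 of the 64 (10.9%) and of 1.95% of the 27025 genes with a promoter. These 27025 were not limited to the 16248 genes listed here, whereas all members are listed, so the shares are of unlike sets. NRF1 is a transcription factor known for binding promoters of nuclear respiratory genes. The ETS core CCGGAAG, which GABP binds, was in 16 members (25%, against 9.93% of all genes), the YY1 core AAGATGG in 11 (17.2%, against 7.28%) and the estrogen-related receptor core AAGGTCA in 8 (12.5%, against 5.38%), each counted on both strands. ACGTG, the core of the hypoxia response element, was in 16 (25%, against 21.8%). Of the 7 members with the NRF1 core 4 rose in MMTV-PyMT ECs with a median change of 0.39, and of the 57 without it 36 rose with a median of 0.37. For the other cores the median was lower with the core than without it. These medians were 0.348 and 0.377 for ETS, 0.31 and 0.392 for YY1, 0.171 and 0.389 for the estrogen-related receptor and 0.344 and 0.395 for ACGTG. None of these differences was tested. The stretches around the NRF1 core are shown for the 3 members with it that had the largest change in MMTV-PyMT ECs. Each is read 5′ to 3′ on the strand of the gene, with the core in capitals.
Ndufa11 (plus strand, chr17:56717678-56717736): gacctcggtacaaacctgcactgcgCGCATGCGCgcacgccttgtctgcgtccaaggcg
Atp5g2 (minus strand, chr15:102671055-102671113): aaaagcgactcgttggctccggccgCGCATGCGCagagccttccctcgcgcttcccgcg
Cox6a1 (minus strand, chr5:115349086-115349144): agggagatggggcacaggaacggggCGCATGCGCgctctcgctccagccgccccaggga
Their changes in MMTV-PyMT against normal ECs were 0.70 ± 0.14 (SE, limma adjusted p = 0.000491) for Ndufa11, 0.67 ± 0.10 (SE, limma adjusted p = 4.6e-05) for Atp5g2 and 0.52 ± 0.10 (SE, limma adjusted p = 0.000377) for Cox6a1.

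Between the tumours, the mitochondrial and nuclear members had medians of opposite sign. In implanted against MMTV-PyMT ECs under PBS 6 nuclear members were higher and 27 lower, against 20.8% and 24.6% of all genes, with a median of -0.17, whereas 5 of 7 mitochondrial mRNAs were higher and 0 lower. Scaled by total reads in voom the nuclear split was 3 higher and 41 lower and the mitochondrial one 3 higher and 1 lower, with the median of all genes moved by -0.156. Of all genes 15.9% were then higher and 34.9% lower. Complex I had 2 higher and 13 lower, complex II 0 higher and 3 lower of 4, complex III 1 higher and 3 lower, and complex V 2 higher and 5 lower. Complex IV had 1 higher and 3 lower of 14, with 8 positive signs and a median of 0.021. Atp5g3, the most abundant gene for subunit c, stood at 54.1, 61.6 and 61.9 FPKM in MMTV-PyMT and 38.5, 38.9 and 35.3 FPKM in implanted PBS libraries, a difference of -0.64 ± 0.09 (SE, limma adjusted p = 3.66e-05). Uqcrfs1 was lower in implanted ECs at 42.2, 44.7 and 41.8 FPKM, a difference of -0.64 ± 0.10 (SE, limma adjusted p = 9.49e-05). Uqcrq, Atp5h and Atp5k were higher in implanted ECs, by 0.62, 0.58 and 0.62 on the log2 scale. The call of Atp5k was lost by total reads in voom and without any of 3 single PBS libraries. Epithelial markers differed in the same comparison, 5 of 6 being lower in implanted ECs, and 5 of 8 endothelial markers were higher and 1 lower. Their part was not tested.

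Among paired isoforms of complex IV and its partners, Cox4i2 and Ndufa4l2 fell in tumour ECs. Cox4i2, the isoform of subunit 4 linked to low oxygen and expressed in lung and vessels, stood at 10.96, 9.202 and 8.78 FPKM in normal, 4.07, 3.01 and 3.596 FPKM in implanted and 3.44, 2.11 and 2.297 FPKM in MMTV-PyMT PBS libraries. The changes were -1.23 ± 0.21 (SE, limma adjusted p = 0.000134) and -1.57 ± 0.21 (SE, limma adjusted p = 1.03e-05), and both tumours were below every normal library. The common isoform Cox4i1 stood at 78.1, 75.8 and 75.97, 86.3, 84.1 and 81.7 and 94.6, 107 and 99.1 FPKM in the same order, and passed in the MMTV-PyMT comparison, a call lost under both FPKM sums, but not in the implanted one. Ndufa4l2, a hypoxia-inducible relative of Ndufa4, stood at 21.1, 19.02 and 22.1 FPKM in normal, 5.86, 7.53 and 7.95 FPKM in implanted and 4.82, 4.13 and 4.17 FPKM in MMTV-PyMT PBS libraries. Its changes, -1.43 ± 0.29 (SE, limma adjusted p = 0.00073) and -2.02 ± 0.29 (SE, limma adjusted p = 2.71e-05), were the largest falls of any nuclear member in both comparisons. Ndufa4, named for complex I but now counted with complex IV, stood at 25.8, 24.8 and 27.1 FPKM in normal and 38.8, 41.96 and 44.8 FPKM in MMTV-PyMT PBS libraries, where it rose, a call lost under both FPKM sums.

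Mural cell markers fell beside Cox4i2 and Ndufa4l2. All 5 of 5 were lower in both tumours, with Rgs5 at 365, 462 and 480.4 FPKM in normal, 106, 131 and 132 FPKM in implanted and 205, 169 and 137 FPKM in MMTV-PyMT PBS libraries. Notch3 stood at 132, 127 and 139, 21.8, 23.1 and 23.5 and 29.7, 27.1 and 23.4 FPKM in the same order. In implanted cGAMP libraries, in replicate order, Ndufa4l2 was 12.997, 13.8 and 3.97 FPKM and Rgs5 272, 181 and 92.2 FPKM, the lowest value of both being in the same library. The part of mural cells in the fall of the 2 genes was not tested.

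Cox7a1, the heart and muscle isoform of a complex IV subunit, had the largest difference between the tumours among the members that passed, at low counts. It stood at 2.06, 2.36 and 2.93 FPKM in normal, 1.801, 1.06 and 1.89 FPKM in implanted and 6.8997, 5.17 and 5.15 FPKM in MMTV-PyMT PBS libraries. These values rest on 13, 15 and 17, 9, 5 and 10 and 49, 30 and 35 recovered reads in the same order. It rose in MMTV-PyMT against normal ECs by 0.96 ± 0.28 (SE, limma adjusted p = 0.00821) and was lower in implanted against MMTV-PyMT ECs by -1.39 ± 0.28 (SE, limma adjusted p = 0.000896). With cGAMP the MMTV-PyMT libraries stood at 3.45, 2.06 and 3.17 FPKM, below every PBS library, but the difference of -0.80 ± 0.28 (SE, limma adjusted p = 0.0775) missed the threshold. The common isoform Cox7a2 stood at 35.3, 35.8 and 42.9 FPKM in normal and 46.2, 55.8 and 59.2 FPKM in MMTV-PyMT PBS libraries, and rose. Cox7a2l, which helps to join complexes III and IV, fell in normal ECs with cGAMP from 46.9, 44.9 and 53.4 to 40.6, 39.5 and 38.8 FPKM. The 2 skeletal muscle markers listed, Ckm and Mb, had sums of 0.401 to 0.717 FPKM in normal and 2.2 to 3.53 FPKM in MMTV-PyMT PBS libraries. Ckm did not take part in this rise, with 13, 8 and 7 recovered reads in normal and 3, 8 and 6 in MMTV-PyMT PBS libraries. Mb (myoglobin), the one that was tested, rose by 1.53 on the log2 scale in MMTV-PyMT and by 1.16 in implanted ECs, and Acta1, Myh4 and Tnnt3 were not listed. Their part in the rise of Cox7a1 was not tested.

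**Figure D5:**
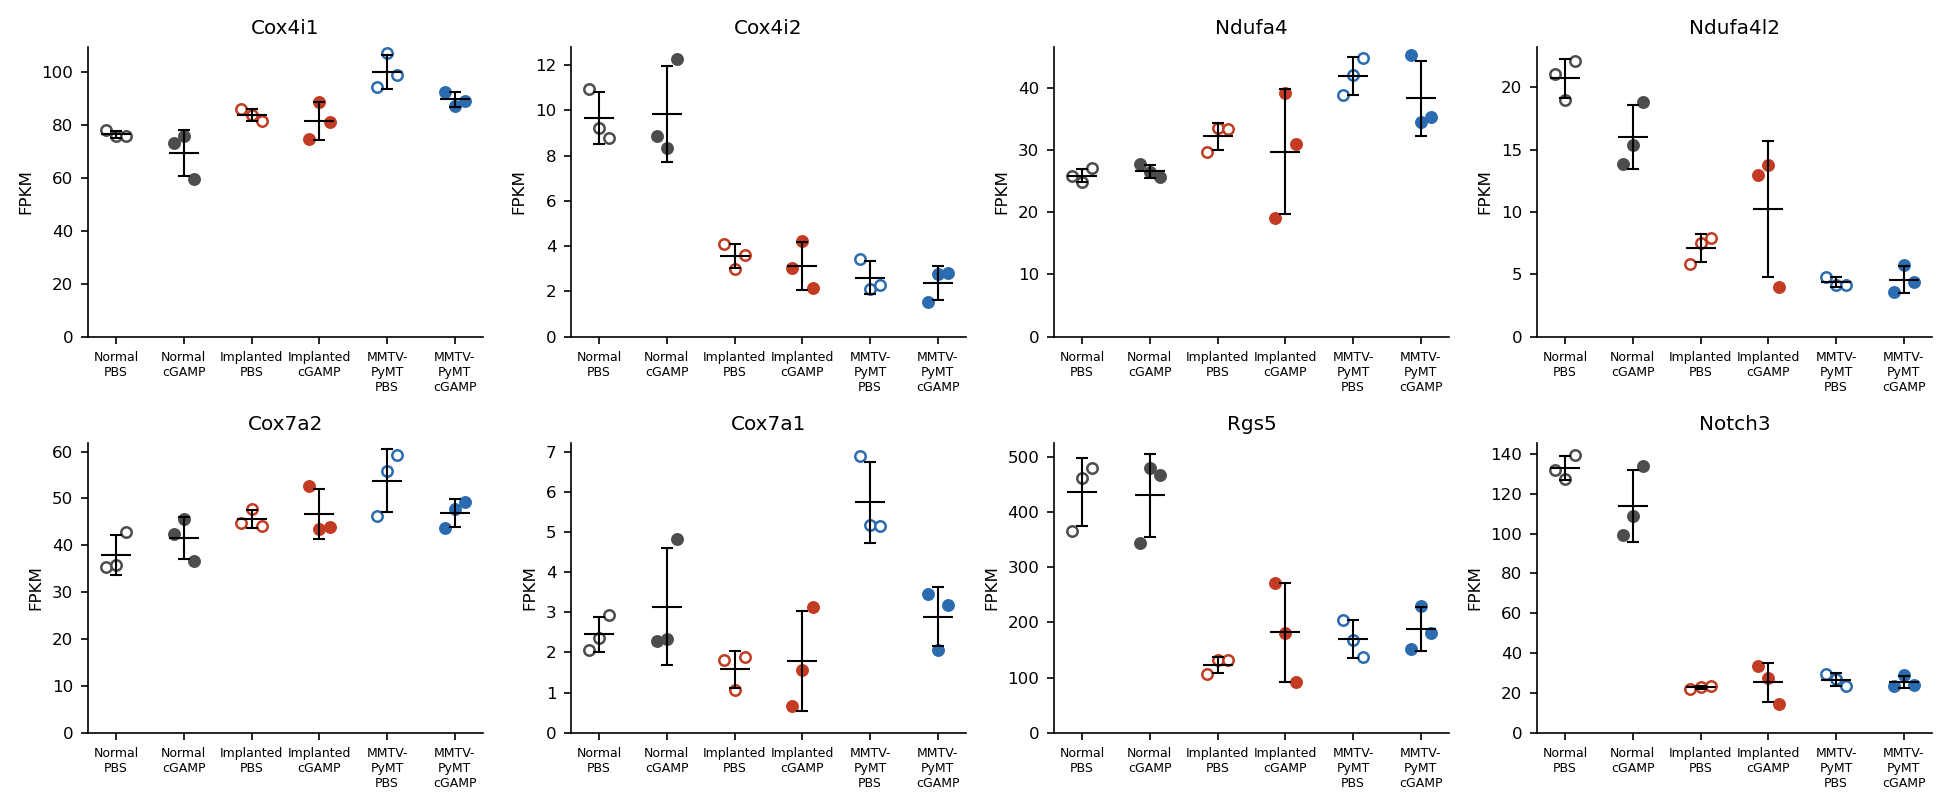
FPKM (y axes, from 0) of 3 isoform pairs, Cox4i1 and Cox4i2, Ndufa4 and Ndufa4l2, Cox7a2 and Cox7a1, and of the mural markers Rgs5 and Notch3 in the 6 groups (x axes). Circles are libraries, open for PBS and filled for cGAMP, with the mean and SD of 3 libraries in black. Cox4i2 and Ndufa4l2 were lower in all tumour PBS libraries than in all normal PBS libraries, as were Rgs5 and Notch3.

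Among the other isoforms, Cox6b2 was near the limit of detection with 14, 15 and 9 recovered reads in normal and 1, 3 and 5 in implanted PBS libraries, beside Cox6b1 at 81.9, 89.7 and 84.2 and 136, 132 and 131 FPKM. Cox6a1 went from 51.3, 52.1 and 60.7 FPKM in normal to 82.9, 87.5 and 75.4 in implanted and 68.04, 85.7 and 83.5 in MMTV-PyMT PBS libraries, and passed in both comparisons. Cox8a went from 84.01, 75.5 and 82.4 to 104, 119 and 116 and 99.6, 117 and 109 FPKM and passed in both, calls lost under both FPKM sums. The 3 genes for subunit c make the same mature protein, and Atp5g1 and Atp5g2 rose in both tumours while Atp5g3 passed in the MMTV-PyMT comparison but not in the implanted one. The calls of Atp5g1 and Atp5g2 in implanted ECs were lost under both FPKM sums and by total reads in voom. Atp5g3 stood at 36.2, 35.3 and 34.9 FPKM in normal and 38.5, 38.9 and 35.3 FPKM in implanted PBS libraries.

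Genes that act on the mitochondrial mRNAs did not share one direction. Of all genes 13.7% rose and 18.2% fell with cGAMP in normal ECs, 20.3% and 18.8% in implanted and 7.42% and 4.57% in MMTV-PyMT tumours. Of 12 tested genes of mitochondrial transcription and replication, 1 (8.33%) rose and 4 (33.3%) fell with cGAMP in normal ECs, 1 (8.33%) rose and 5 (41.7%) fell in implanted and 0 of 12 passed in MMTV-PyMT tumours (1 at an unadjusted p under 0.05). The gene of this list that rose in normal ECs, not named here, did so by 1.26 on the log2 scale, the largest change of the list there. Polrmt, the mitochondrial RNA polymerase, fell by 0.36 in normal ECs and fell by 0.64 in implanted tumours on the log2 scale, and Twnk, the replicative helicase, by 0.39 and 1.04. The falls in normal ECs were lost without any of 2 (Polrmt) and 4 (Twnk) single normal libraries. Tfam, the packaging and transcription factor of mitochondrial DNA, rose by 0.39 in implanted tumours, a call lost under both FPKM sums and by total reads in voom. Of 17 genes of mitochondrial RNA processing and decay, normal ECs had 2 higher (11.8%) and 3 lower (17.6%) with cGAMP, implanted 2 higher (11.8%) and 5 lower (29.4%) and MMTV-PyMT 1 higher (5.88%) and 0 lower. The member that rose in all 3 was Pnpt1, the polynucleotide phosphorylase that degrades mitochondrial RNA and is known to be induced by interferon. It stood at 5.56, 5.78 and 6.01 FPKM in normal PBS and 13.5, 14.5 and 11.4 FPKM in normal cGAMP libraries. In implanted tumours it went from 7.49, 6.78 and 6.36 to 47.3, 32.5 and 41.6 FPKM and in MMTV-PyMT tumours from 5.999, 5.93 and 7.25 to 15.8, 19.4 and 21.6 FPKM. Its rise in implanted tumours exceeded that in MMTV-PyMT tumours by 0.96 ± 0.19 (SE, limma adjusted p = 0.00369) and that in normal ECs by 1.33 ± 0.19 (SE, limma adjusted p = 0.00019). The ratio of mitochondrial to nuclear reads was higher in the same cGAMP libraries, and a link between it and Pnpt1 was not tested.

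Of 12 tested regulators of nuclear respiratory genes, 6 (50%) rose and 1 (8.33%) fell with cGAMP in normal ECs, 5 (41.7%) rose and 3 (25%) fell in implanted and 2 (16.7%) rose and 0 fell in MMTV-PyMT tumours, against 13.7% and 18.2%, 20.3% and 18.8%, and 7.42% and 4.57% of all genes. Esrra, the estrogen-related receptor alpha, fell by 0.39 in normal ECs and by 0.65 in implanted tumours with cGAMP, the first being lost without any of 5 single normal libraries. It rose by 0.67 in MMTV-PyMT and 0.60 in implanted against normal ECs under PBS. Ppargc1b, a coactivator of respiratory genes, fell by 0.67 and 0.93 in the same comparisons. Nrf1 itself passed in none of the cGAMP comparisons, and it fell by 0.36 in implanted against normal ECs and fell by 0.34 in implanted against MMTV-PyMT ECs. Gabpb1, a subunit of GABP, rose with cGAMP by 0.74 in normal ECs and 0.94 in implanted tumours.

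Other nuclear genes of the mitochondrion are set against all genes, of which 29.8% rose and 26.6% fell in MMTV-PyMT and 25% rose and 23.6% fell in implanted against normal ECs. Of 77 mitochondrial ribosomal proteins 40 (51.9%) rose and 0 fell in MMTV-PyMT and 28 (36.4%) rose and 0 fell in implanted ECs against normal ECs. With cGAMP 18 (23.4%) were lower and 0 higher in normal ECs, against 18.2% and 13.7% of all genes. In implanted tumours 22 (28.6%) were lower and 3 (3.9%) higher, against 18.8% and 20.3% of all genes. In MMTV-PyMT tumours 4 (5.2%) were lower and 0 higher, against 4.57% and 7.42% of all genes. Of 19 genes of the tricarboxylic acid cycle and pyruvate dehydrogenase 14 (73.7%) were higher and 2 (10.5%) lower in MMTV-PyMT ECs, but 3 (15.8%) rose and 6 (31.6%) fell in implanted ECs against normal ECs. Of 42 tested assembly factors the MMTV-PyMT comparison had 8 higher (19%) and 3 lower (7.14%) and the implanted one 7 higher (16.7%) and 4 lower (9.52%), each share being below that of all genes. Of 6 nucleotide and phosphate carriers and porins 4 rose and 1 fell, and 4 rose and 0 fell, respectively. Cyc1, the cytochrome c1 of complex III that the names leave out, rose by 0.72 and 0.92 in the 2 comparisons, while Cycs, Ndufab1 and Hccs passed in neither. The single uncoupling protein tested, Ucp2, rose by 0.60 in MMTV-PyMT ECs. Neither mitochondrial ribosomal RNA passed in any of the 6 comparisons of groups in limma, with median changes from 0.048 to 0.44, and 1 of the 2 had an unadjusted p under 0.05 in cGAMP against PBS in implanted tumours and in implanted against normal ECs.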

How the data were processed

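RNA of sorted ECs (CD31+, CD45-) was sequenced in 18 libraries. Per the labels and the methods of the study, the authors aligned reads to mm10 with STAR 2.7, counted them with HTSeq and deposited 1 table of FPKM values per gene. 6 columns carry no tissue word and stand for the normal fat pad libraries by elimination, as the titles leave no other group. Whole reads were recovered for 99.94% of genes (within 0.02 of a whole number) with exon lengths of GENCODE M21, and their sums, 9068064 to 12058796 a library, gave the depth. The FPKM denominators were 0.744 to 1.16 times these sums, so that the deposited scale was not one of plain read totals. Whether counting used the strand was not given in the sources used here.

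Tests ran on log2(FPKM + 1) in limma 3.58.1 (R 4.3.3) over 13983 genes, with 6 group means, 9 contrasts and Benjamini-Hochberg adjustment; a fold change on this scale understates that of low genes. Alternatives were a pseudocount of 0.1, no filter, the same FPKM sum, the same sum outside the mitochondrial genome, voom in limma on recovered reads scaled by a trimmed mean of M values (TMM) or by total reads (the last chosen after seeing the data), a replicate block and each library left out, and for the read ratio leaving out mt-Co1 (also chosen after seeing the data). In voom with TMM 44 nuclear members passed in MMTV-PyMT against normal ECs, 41 higher and 3 lower, against 27.2% and 31.4% of all genes.

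The members and lists were chosen with earlier results of these data known. Named were, in each comparison, the 3 nuclear members with the largest rise and the 3 with the largest fall among those that passed. The rule also took the mitochondrial members with the highest and lowest change, but these are named in some comparisons only. Mitochondrial mRNAs, isoform families and Sdh genes were taken whatever their change. So were genes of mitochondrial transcription, RNA decay and regulation, of which only some are named. Others were chosen after their values were seen. By the study's account a group held 3 mice from 3 experiments, but which library came from which experiment was not given in the sources used here. Most same-numbered libraries did not deviate together, with correlations from -0.345 to 0.294 and a median of -0.013 over 45 pairs. Of these pairs 8 were over 0.1.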

Additional observations from a re-analysis of the deposited data

Results flagged for a closer look

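The cGAMP effect differed between tissues, by the test of the difference in limma, for 3 members of complex I. For Ndufs4 it was 0.51 higher in implanted than in MMTV-PyMT tumours on the log2 scale (adjusted p = 0.00708), and all 3 cGAMP libraries lay above the PBS libraries in implanted and below them in MMTV-PyMT tumours. For Ndufs7 it was 0.65 higher in implanted tumours than in normal ECs (limma adjusted p = 0.0091), and for Ndufa3 0.42 higher (limma adjusted p = 0.0396). The 3 differences kept their sign under the 7 alternatives and 18 left-out libraries. The calls of Ndufs4 and Ndufs7 were lost with either FPKM sum and with total reads, and that of Ndufa3 under 5 alternatives and 12 left-out libraries.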

How the results depend on the processing

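Of 92 named changes that passed, 57 kept sign and call under all 7 alternatives and all 18 libraries left out, 35 lost the call at least once and 2 turned sign. Ndufs4 with cGAMP in implanted tumours was at -0.023 with the same FPKM sum, -0.0038 with the same sum outside the mitochondrial genome and -0.078 with total reads. Sdhd in implanted against normal ECs was at -0.034 and -0.037 with these 2 sums. The median change of mitochondrial minus that of nuclear members moved by less than the SD between single libraries (0.17) throughout, but by over 1.5 times with some libraries left out. With cGAMP in implanted tumours it was 0.24, and 0.13 without implanted PBS replicate 1, 0.36 without PBS replicate 2 and 0.39 without cGAMP replicate 2. In implanted against normal ECs it was 0.20, and 0.33 and 0.088 without implanted PBS replicates 1 and 3. The differences of effects between tissues changed sign with single libraries left out, ranging from -0.23 to 0.024, -0.19 to 0.02 and -0.065 to 0.22 (implanted minus MMTV-PyMT, implanted minus normal and MMTV-PyMT minus normal). The sign changed without MMTV-PyMT cGAMP replicate 2 in the first and last, and without implanted PBS replicate 2 or 3 or cGAMP replicate 2 in the other. Without mt-Co1 the ratio of mean read ratios moved to 1.21 for cGAMP in implanted tumours, 1.12 for implanted against normal and 1.40 for implanted against MMTV-PyMT ECs.

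Counts of passing nuclear members moved by over 1.5 times as follows. With the same FPKM sum, 9 passed with cGAMP in MMTV-PyMT and 44 in implanted tumours (all lower), 30 in MMTV-PyMT against normal ECs, and 5 (all lower) in the difference between implanted tumours and normal ECs. In the same order 5.31%, 37.1%, 40.3% and 15.15% of all genes were lower, and in MMTV-PyMT against normal ECs 17.4% were higher. With the same sum outside the mitochondrial genome the member counts were 7, 40, 31 and 5, with 0 in the difference between the tumours and 1 (Cox7a2, lower) between MMTV-PyMT tumours and normal ECs. Of all genes 4.96%, 35.4%, 41.2%, 14.8%, 7.53% and 3.63% were lower in these comparisons, in order. In MMTV-PyMT against normal ECs 17.1% were higher. With TMM in voom, 0 passed with cGAMP in MMTV-PyMT tumours and 1 in the difference between implanted tumours and normal ECs. Of all genes 8.94% were higher and 4.19% lower in the first, and 10.4% and 6.86% in the second. With total reads in voom, 32 and 47 passed with cGAMP in MMTV-PyMT and implanted tumours (all lower) and 0 in their difference, while the 2 in the difference between implanted tumours and normal ECs were lower. Of all genes 19.0%, 42.9%, 9.8% and 18.5% were lower in these comparisons, in order. The median of all genes moved by at most -0.329 on the log2 scale (total reads, cGAMP in implanted tumours).

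Of the 7 mitochondrial mRNAs, 2 passed with cGAMP in normal ECs under each of the 4 scalings. In MMTV-PyMT tumours 2 passed in voom with TMM and 1 with total reads. In implanted tumours 0 passed with either FPKM sum and with total reads, and 1 in voom with TMM. In MMTV-PyMT against normal ECs 4 passed, as lower, with the same FPKM sum and 1 in each voom fit. With total reads 1 (mt-Nd1, lower) passed in the difference between implanted tumours and normal ECs. The replicate block gave 1 mitochondrial member with cGAMP in implanted tumours and 1 nuclear member in the difference between implanted tumours and normal ECs, and moved no other count by over 1.5 times.

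Leaving out 1 library at a time, nuclear counts with cGAMP ranged from 3 to 9 in normal ECs, 0 to 7 in MMTV-PyMT and 1 to 6 in implanted tumours, and from 1 to 3 in the differences of implanted tumours from MMTV-PyMT tumours and from normal ECs. Mitochondrial counts ranged from 0 to 3, 0 to 4 and 1 to 3 with cGAMP in the same order, from 0 to 2 in MMTV-PyMT against normal ECs and from 3 to 5 in implanted against MMTV-PyMT ECs. The cause was not tested. Depth limits mt-Nd6, Cox6b2, Cox7a1 and Atp5k, with 9 to 79, 1 to 20, 3 to 49 and 16 to 42 reads a library.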
